A study of Mus musculus with 27 samples.

Results

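Adipokines are the hormones and other secreted proteins through which fat tissue acts on appetite, insulin action and immune cells. The following 8 such genes were followed across 3 diets, namely Lep (leptin), Adipoq (adiponectin), Retn (resistin), Cfd (adipsin), Nampt (visfatin), Rarres2 (chemerin), Apln (apelin) and Rbp4 (retinol-binding protein). They were matched by symbol in the probe annotation, and each gene was read on the probe set with the highest mean signal among those annotated to that gene alone. Of these 8 genes, 7 had such a probe set, 11 probe sets in all, among 18193 genes measured in the same way. Their Entrez identifiers are 16846 for Lep, 11450 for Adipoq, 57264 for Retn, 59027 for Nampt, 71660 for Rarres2, 30878 for Apln and 19662 for Rbp4. Cfd is not listed there and was not analysed here.

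The RNA came from epididymal adipose tissue (EAT) of 27 male C57BL/6J mice, each hybridized to its own Affymetrix GeneChip mouse genome array, with 9 mice per diet. The mice arrived at 5 weeks of age and, after 1 week on standard chow, were fed for 18 weeks with the Western diet plus 0.05% quercetin, a plant flavonol (called here the quercetin diet), with the Western diet alone, or with the AIN93G control diet. The Western diet took 39.9% of its energy from fat, with butter as the main source, and 34.0% from sucrose, and it held 0.15% cholesterol. The quercetin diet shared all of these, so that it differs from the control diet in the Western components as well as in quercetin. The animals were housed 3 to a cage and the cages are not given, so that likeness between cage mates was not tested.

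In mice, leptin is made by adipocytes in proportion to their lipid stores and acts on the brain to lower food intake, whereas adiponectin, also made by adipocytes, circulates as multimers and favours insulin sensitivity and fatty acid oxidation. Resistin is an adipocyte product in mice, chemerin attracts macrophages and dendritic cells that carry its receptor, and RBP4 carries retinol in blood and is made in liver and fat. In obesity EAT takes up macrophages around dying adipocytes. EAT is a mixture of cells, and in such bulk samples fewer cells of a type and less RNA per cell cannot be told apart.

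The sequences below show the RT-PCR primers listed for the leptin and adiponectin genes, and the stretch before each gene's start. RT-PCR values are not used here. The study's supplementary table lists the following primers for both genes (5′ to 3′).
Lep forward primer: caggatcaatgacatttcacaca
Lep reverse primer: gctggtgaggacctgttgat
Adipoq forward primer: ggagagaaaggagatgcaggt
Adipoq reverse primer: ctttcctgccaggggttc

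Lep lies on chromosome 6 and Adipoq on chromosome 16. The 100 bases before each annotated start, from RefSeq (GRCm38.p6) on the plus strand, are given here as a description, since both genes are transcribed in adipocytes. Whether the motifs marked below bear on the signal of either gene was not tested. In Lep the capitals mark TTGCGCAA, a palindromic C/EBP element, and in Adipoq they mark CCAAT or its complement ATTGG.
Lep, chr6:29060121-29060220: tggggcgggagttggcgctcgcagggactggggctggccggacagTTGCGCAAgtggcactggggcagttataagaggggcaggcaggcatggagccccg
Adipoq, chr16:23146436-23146535: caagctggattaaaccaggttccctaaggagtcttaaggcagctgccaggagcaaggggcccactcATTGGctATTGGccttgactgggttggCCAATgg

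RefSeq windows of 300 bases around the start were at hand for 6 of the 7 measured genes, Rarres2 having none in the table. TTGCGCAA begins 55 bases before the start of Lep (position -55) and is in 0.183% of all 32851 windows, and in no window of the other 5 genes. CCAAT, searched on both strands, lies at -34, -27 and -7 in Adipoq and is in 37.4% of all windows, and Rbp4 has it at -162. The motifs do not overlap each other in these windows. Cebpa, which encodes the C/EBP factor that adipocytes keep through maturity, averaged a log2 signal of 11.58 ± 0.19 on the quercetin diet, 11.61 ± 0.16 on the Western diet and 11.65 ± 0.42 on the control diet (SD, n = 9). It did not pass the test of the Western against the control diet (log2 fold change -0.03, adjusted p = 0.89, limma). Nor did Cebpb (0.36, adjusted p = 0.09) or Cebpd (0.29, adjusted p = 0.24), which encode other C/EBP factors. Whether these factors acted on Lep here was not tested.

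Some arrays were high in markers of other tissues. The extraction text in the labels names liver, while titles and tissue labels name EAT. Fabp4, the adipocyte fatty acid carrier, had normalized log2 signals of 13.71 to 13.85 on every array, whereas albumin ranged from 5.74 to 13.13. The median Fabp4 signal was 13.85 too. Quantile normalization sets such top signals to a value fixed for their rank, so this narrow range cannot compare adipocyte content between arrays. The mean log2 signal of 9 measured liver markers was highest on Western diet replicate 4 (11.44) and Western diet replicate 6 (10.32), and 8 arrays over the 3 diets were 2 log2 units or more above the median array. Among the control arrays, replicate 6 had by far the highest mean of testis and epididymis markers (10.24, against 5.95 or less on the others). Control replicates 4 and 2 stood out in smooth muscle markers (11.53 and 10.96), and control replicate 3 in lymph node markers (6.97). Testis and epididymis means of 5.95 on control replicate 9, 6.83 on Western diet replicate 7 and 7.13 on quercetin diet replicate 5 also counted as high. The fits without arrays high in other tissues left out every array named here for testis, smooth muscle or lymph node markers. For the 7 adipokine genes, results are given below with and without these arrays where that changed a call.

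The arrays also differed in technical measures that moved with diet. The ratio of 3′ to 5′ actin signal, which grows as RNA is shortened, averaged 1.14 ± 0.19 log2 units on the quercetin diet, 0.79 ± 0.12 on the Western diet and 1.11 ± 0.29 on the control diet (SD, n = 9). The exact two-sided permutation p was 0.000123 for the quercetin against the Western diet and 0.00362 for the Western against the control diet. The spike-in control bioC, a bacterial transcript added to each sample, read 1038 ± 98.7 on the quercetin diet, 802 ± 95.9 on the Western diet and 698 ± 92.2 on the control diet as deposited, with exact permutation p-values of 0.000247 for quercetin against Western and 8.23e-05 for quercetin against control. The macrophage marker mean was higher in Western than in control mice by 1.39 log2 units (exact permutation p = 8.23e-05). Of 12 macrophage markers 10 were called higher there by limma, beside 11.3% of all genes. Between quercetin and Western mice the macrophage marker mean differed by -0.62 log2 units (exact permutation p = 0.0124). The mature adipocyte marker mean was 12.16 ± 0.08 on the quercetin diet, 12.04 ± 0.10 on the Western diet and 12.13 ± 0.21 on the control diet. Its exact permutation p was 0.014 for quercetin against Western and 0.247 for Western against control. The part of these measures in the adipokine results was not tested, except where arrays were left out.

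Of the 7 genes Lep and Rarres2 were higher in Western than in control mice, and none was lower. Among all genes 11.3% were called higher and 6.44% lower in this comparison (limma, Benjamini-Hochberg adjusted p under 0.05). Between the quercetin and the Western diet none of the 7 was called in either direction, beside 0.253% of all genes higher and 0.077% lower, while 2 of the 7 were higher at an unadjusted p under 0.05 (Retn and Rbp4) and none lower, beside 7.31% of all genes higher and 6.41% lower at that unadjusted threshold. The methods' test called none of the 7 there either. Between the quercetin and the control diet Rarres2 alone was called, as higher, where 5% of all genes were higher and 1.65% lower. Over the 3 diets together Lep and Rarres2 passed the F test, as did 16% of all genes. The median log2 fold change of the 7 was 0.0072 for Western against control, beside -1.8e-05 over all genes, and 0.0087 for quercetin against Western, beside 0.019 over all genes. For quercetin against control it was 0.20, beside 0.027.

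**Figure D1:**
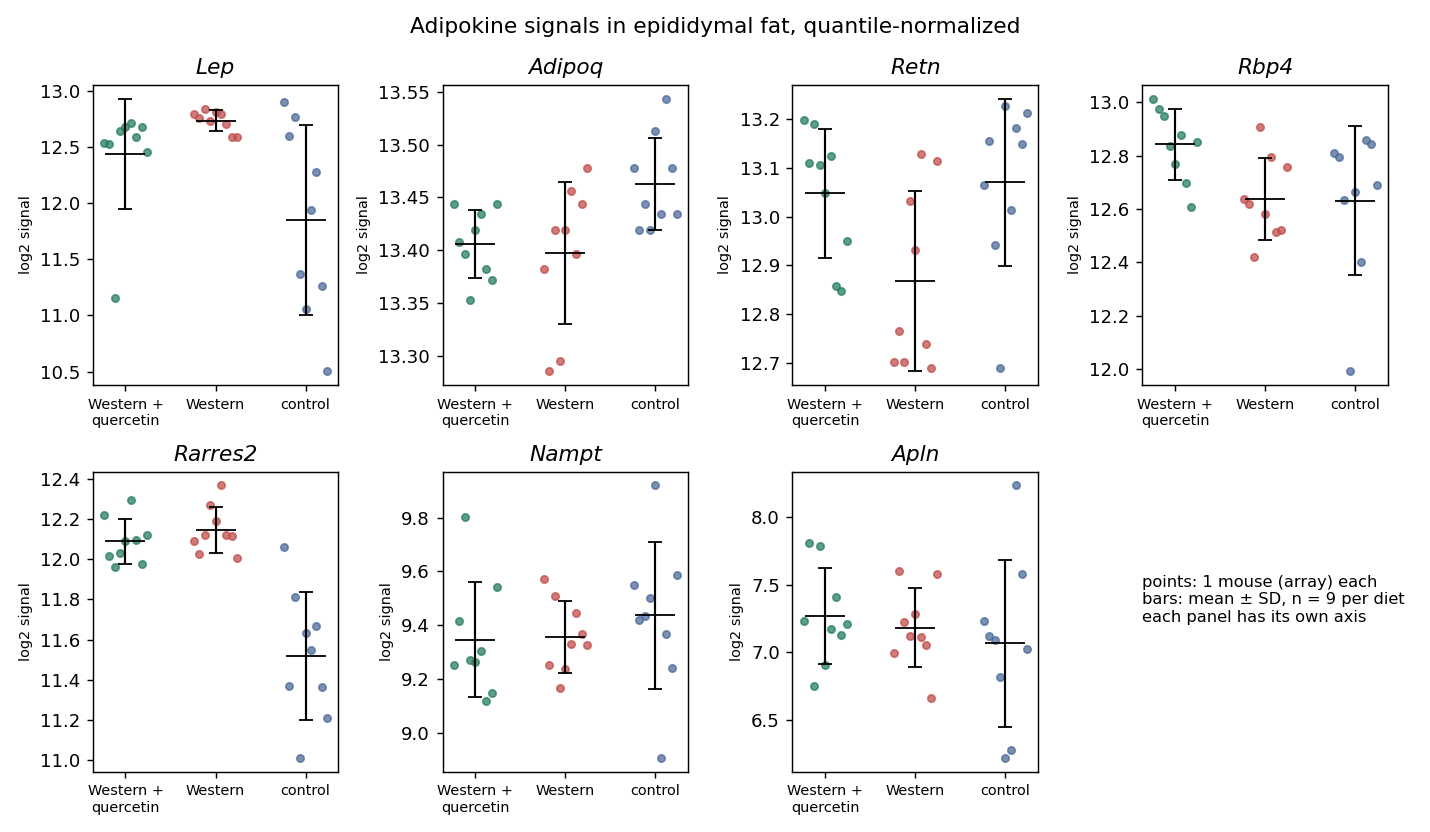
Quantile-normalized log2 signal (vertical axes, a scale of its own in each panel) of 7 adipokine genes in EAT, 1 point per mouse, for the quercetin, Western and control diets from left to right, with mean ± SD (n = 9). Control mice spread widely for Lep (SD 0.85 log2 units, and 0.91 after a median shift), Western diet mice much less (SD 0.09, and 0.19 after a median shift). For Rarres2, 8 of 9 control mice lie below every Western diet mouse.

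Lep, the leptin gene, was set apart by the spread of the control mice. Its deposited signal had a lowest, median and highest value of 2358, 6286 and 7190 on the quercetin diet, 5822, 6763 and 7815 on the Western diet and 1217, 3905 and 8122 on the control diet. The groups overlapped. Of the 9 control mice, 6 lay below every Western diet mouse and 1, replicate 3, lay above all of them, and control replicates 1 and 2 read 7613 and 6762. On the quercetin diet replicate 3 read 2358 and the next lowest mouse 5432.

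On the normalized log2 scale Lep averaged 12.44 ± 0.49 on the quercetin diet, 12.74 ± 0.09 on the Western diet and 11.86 ± 0.85 on the control diet (SD, n = 9). It was 1.84-fold higher in Western than in control mice (log2 fold change 0.88, SE 0.25, adjusted p = 0.014, limma). The exact two-sided permutation p of this difference was 0.00576, and all 9 Western diet mice were above the control median. The call held when any 1 array was left out, with log2 fold changes of 0.71 to 1.01 and adjusted p-values of 0.0036 to 0.033. It was lost with the methods' test, an analysis of variance for unequal spreads followed by Tukey's test on the same values (adjusted p = 0.091), and without the 8 arrays high in liver markers (0.92, adjusted p = 0.091). Without the 9 arrays with the highest 3′ to 5′ actin ratio, the log2 fold change was 0.54 (adjusted p = 0.031). None of these arrays was from the Western diet. Among them were control replicates 9, 5 and 8, which had the lowest control values on this scale (10.50, 11.06 and 11.27).

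Lep on the quercetin diet lay between the other diets in its mean. Against the Western diet its log2 fold change was -0.29 with a 95% interval of -0.81 to 0.22 (adjusted p = 0.68, limma). The limma fit shares its spread with the widely scattered control mice. Fitted over these 2 diets alone, the same difference had an adjusted p of 0.29. The exact permutation test over the 18 mice of these 2 diets gave p = 0.00605, one of 21 such tests over the 7 genes and 3 comparisons and not adjusted for their number. After normalization 6 of 9 Western diet mice lay above every quercetin diet mouse, and no quercetin diet mouse lay above the Western median, whereas on the deposited scale 3 Western diet mice lay above every quercetin diet mouse and 3 quercetin diet mice above the Western median. Without quercetin replicate 3 the log2 fold change was -0.13 (adjusted p = 0.90), and without this mouse Lep on the quercetin diet was higher than on the control diet (0.75, adjusted p = 0.039), which it was not over all mice (0.59, 95% interval 0.08 to 1.10, adjusted p = 0.16). This mouse is also among the 9 arrays left out for a high actin ratio. Without those arrays the quercetin against Western log2 fold change was -0.15 (adjusted p = 0.89, limma). Within the control diet Lep went with the macrophage marker mean, with r of 0.722 (exact permutation p = 0.028), rho of 0.717 (exact p = 0.0369) and r of 0.47 once the 2 mice most distant from the median marker mean were left out. The r was 0.509 on the quercetin diet and -0.096 on the Western diet (exact p = 0.12 and 0.79), and the adjusted p-values over all 63 such relations were 0.16, 0.40 and 0.94.

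**Figure D2:**
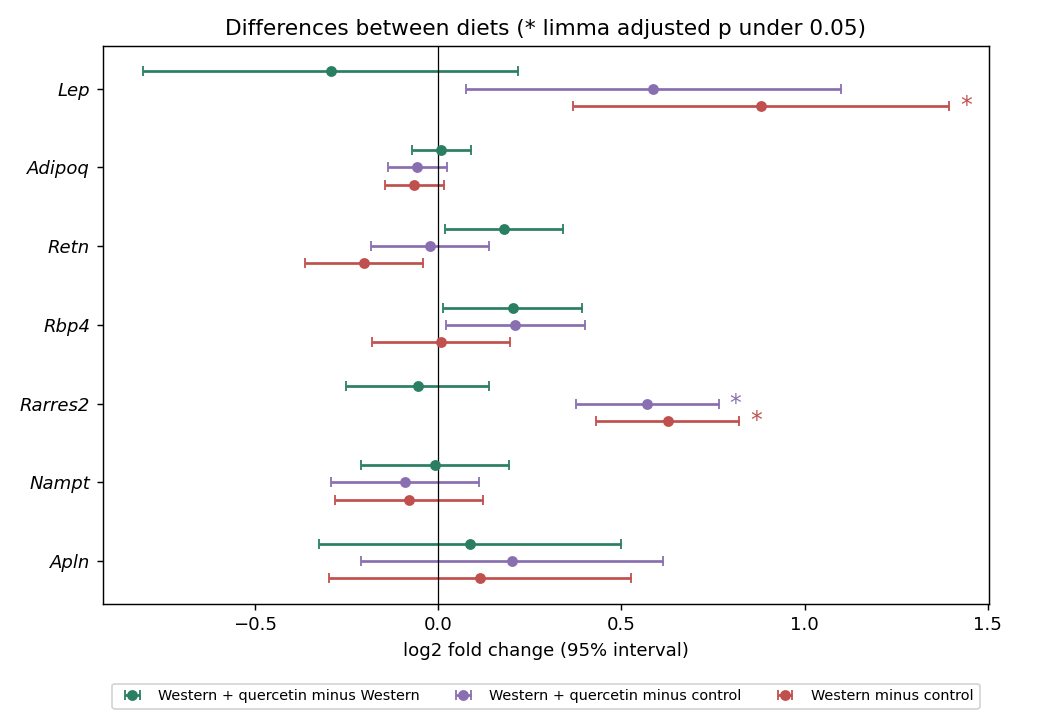
Log2 fold change (horizontal axis) of 7 adipokine genes with its 95% interval from the limma fit over 27 arrays, for quercetin minus Western, quercetin minus control and Western minus control; asterisks mark an adjusted p under 0.05 over all genes. Lep (0.88) and Rarres2 (0.63) carry an asterisk for Western minus control, Rarres2 (0.57) also for quercetin minus control, and no gene does for quercetin minus Western.

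Rarres2, which encodes the chemoattractant chemerin, had the smallest p of the 7 genes in the Western against control comparison. Its deposited signal had a lowest, median and highest value of 4112, 4588 and 4953 on the quercetin diet, 3643, 4594 and 5415 on the Western diet and 1960, 2922 and 4375 on the control diet. After normalization 8 of 9 control mice were below every Western diet mouse, and the same number were below every quercetin diet mouse, the exception being control replicate 1. On the deposited scale 7 control mice were below every mouse of either Western group. Between the Western groups, 2 quercetin diet mice lay below every Western diet mouse and 1 Western diet mouse above every quercetin diet mouse after normalization. Mean log2 signals were 12.09 ± 0.11, 12.15 ± 0.12 and 11.52 ± 0.32 on the quercetin, Western and control diets (SD, n = 9).

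Rarres2 was 1.54-fold higher in Western than in control mice (log2 fold change 0.63, SE 0.10, adjusted p = 5.4e-05, limma; exact permutation p = 0.000123) and 1.49-fold higher in quercetin than in control mice (0.57, adjusted p = 0.00068). Between the quercetin and the Western diet it differed by -0.06, with a 95% interval of -0.25 to 0.14. A second probe set of the gene gave 0.61 for Western against control (adjusted p = 4.5e-05 in a fit over all probe sets) and -0.09 for quercetin against Western, and the dimmest, with signals of 12.8 to 93.0, gave 0.66 without passing (adjusted p = 0.085). The call held without the arrays high in testis, lymph node or smooth muscle markers (0.47, adjusted p = 0.0038) and without those high in liver markers (0.56, adjusted p = 0.00096). Within the control diet Rarres2 went with the macrophage marker mean (r = 0.8, exact permutation p = 0.0096, adjusted 0.086; rho = 0.900, exact p = 0.00203; r = 0.664 without 2 mice), and on the quercetin and Western diets r was 0.003 and -0.527 (exact p = 0.99 and 0.15). With the liver marker mean r was 0.793 on the Western diet (exact permutation p = 0.0093, adjusted 0.086; rho = 0.619, exact p = 0.0816; r = 0.448 without 2 mice), and -0.357 and 0.079 on the quercetin and control diets (exact p = 0.34 and 0.84).

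Cmklr1 and Ccrl2, which bind chemerin, were also higher on the Western diet. Cmklr1, its signalling receptor, was higher in Western than in control mice (log2 fold change 0.55, adjusted p = 0.0076) and in quercetin than in control mice (0.73, adjusted p = 0.0032). On its second probe set these differences were 0.81 (adjusted p = 0.072) and 0.21 (adjusted p = 0.76), and neither passed. Without the arrays high in other tissues they were 0.36 (adjusted p = 0.16) and 0.57 (adjusted p = 0.062). Each call was lost in 4 of 16 other settings. Ccrl2, which binds chemerin without signalling, was likewise higher on the Western diet (0.90, adjusted p = 0.00013). Of 13 measured adipokine receptors 6 were higher in Western than in control mice and none lower, beside 11.3% and 6.44% of all genes. The median log2 fold change of the 13 was 0.31. Stra6l, a receptor of RBP4 related to STRA6 and dim on these arrays, had the largest of these differences (2.40, adjusted p = 0.00082), and Tlr4, the lipopolysaccharide receptor that binds resistin in human cells, was higher by 0.41 (adjusted p = 0.043), a call lost in 10 of the 27 fits that leave out 1 array. None of the 13 was called by limma between the quercetin and the Western diet, where 1 was higher and 2 were lower at an unadjusted p under 0.05, beside the 7.31% and 6.41% of all genes.

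Adipoq, the adiponectin gene, was among the brightest probe sets of every array, and its signal hardly varied. Its deposited signal had a lowest, median and highest value of 10163, 10798 and 11639 on the quercetin diet, 9380, 10540 and 10944 on the Western diet and 10904, 11414 and 12534 on the control diet. On this unscaled scale 8 of 9 Western diet mice were below every control mouse (4 after normalization), and the highest signal of any probe set ran from 12934 to 14867 on the Western diet arrays and from 13639 to 16229 on the control arrays. After normalization the means were 13.41 ± 0.03 on the quercetin diet, 13.40 ± 0.07 on the Western diet and 13.46 ± 0.04 on the control diet (SD, n = 9).

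No diet comparison of Adipoq passed the test. The log2 fold change was -0.07 for Western against control (95% interval -0.15 to 0.02, adjusted p = 0.28, limma), 0.01 for quercetin against Western (-0.07 to 0.09, adjusted p = 0.96) and -0.06 for quercetin against control (-0.14 to 0.02, adjusted p = 0.43). The exact permutation p of the last difference was 0.00576 on the normalized values and 0.414 when arrays were only shifted to a common median, where it was -0.09. For Western against control the permutation p was 0.024 on the normalized values and 0.853 after the median shift. Both of these permutation results thus depended on the scaling.

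Adipoq ranked 8 to 26 from the top on each array, at 64.7% to 81.4% of the array's highest signal. At such ranks quantile normalization replaces each signal by a value fixed for its rank, and the SD within a diet was 0.05 log2 units with it, 0.07 as deposited and 0.23 after the median shift. The deposited signal of bright controls varied little too. The spike-in cre, whose signals ran from 10224 to 13074 and so covered most of the Adipoq range, varied by an SD of 0.09 log2 units over the 27 arrays, whereas the dimmer controls bioB, bioC and bioD, added from the same mixture at lower levels, varied by 0.39, 0.29 and 0.24. For 1 log2 unit of difference between arrays in bioC, bioD changed by 0.78 and cre by 0.25. Among all probe sets, those of the 50 highest means had a median SD of 0.11 log2 units as deposited, and those of ranks 2001 to 5000 had 0.28. Whether differences in Adipoq transcript were compressed in the same way was not tested.

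**Figure D3:**
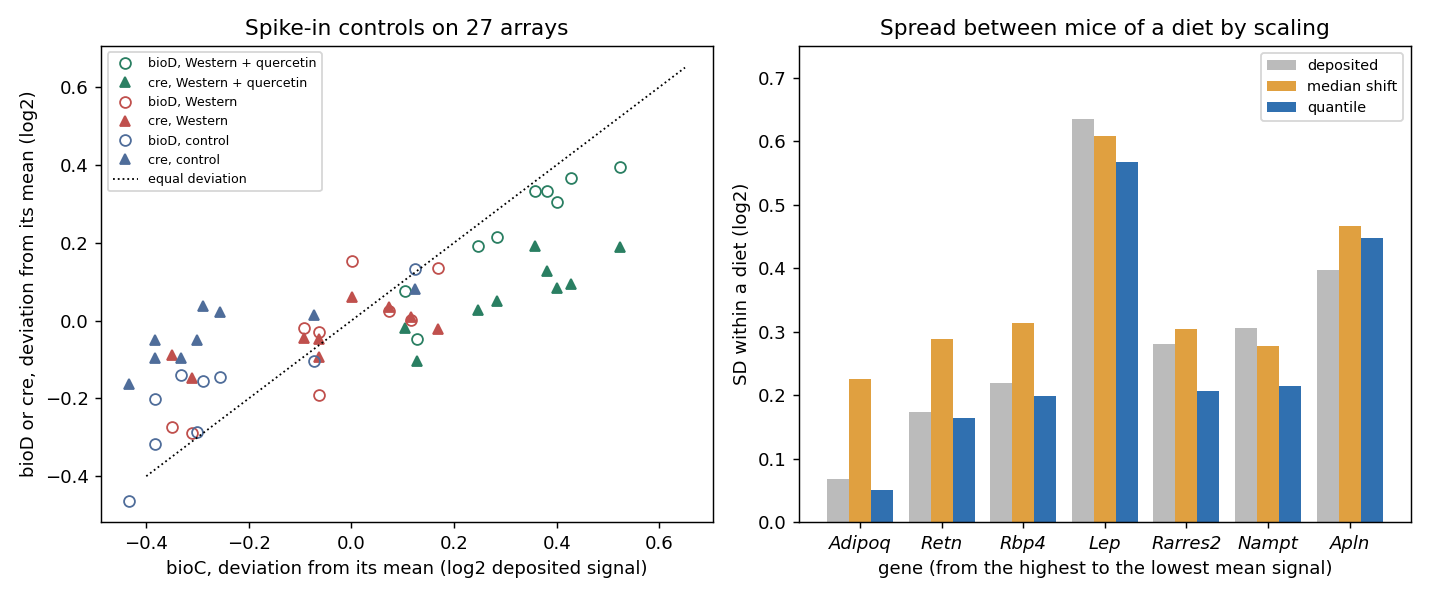
Left, deviation of the spike-ins bioD (circles) and cre (triangles) from their means against that of bioC, in log2 deposited signal, 1 pair of points per array, with a dotted line of equal deviation; the slopes are 0.78 for bioD and 0.25 for cre. Right, SD within a diet (log2) of each adipokine gene as deposited, after a median shift and after quantile normalization, genes ordered from the highest mean signal to the lowest; for Adipoq it is 0.07, 0.23 and 0.05.

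Retn lay between the signals of bioD (3011 to 5453) and cre, at 41.7% to 65% of the array maximum, and Lep reached from 8.21% to 56.4%. On the Western diet Lep (5822 to 7815) lay between these spike-ins too. Whether its narrow spread there, or its difference from the control diet, was compressed was not tested. Signals of different probe sets are set side by side here only for brightness, since they do not compare amounts of transcript. With a median shift in place of quantile normalization the Western against control log2 fold change was 1.06 for Lep (adjusted p = 0.0067) and 0.80 for Rarres2 (adjusted p = 0.00023), and with no scaling at all it was 0.94 (adjusted p = 0.027) and 0.69 (adjusted p = 0.001).

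Some of the genes that fold and release adiponectin were higher on the Western diet. Of 8 such genes of the endoplasmic reticulum 4 were higher than on the control diet and none lower (all genes 11.3% and 6.44%). The higher ones were Pdia3 (log2 fold change 0.40, adjusted p = 0.0085), Calr (0.30, adjusted p = 0.00020) and P4hb (0.26, adjusted p = 0.012), which assist protein folding, and Sel1l (0.36, adjusted p = 0.00037), which serves the removal of misfolded proteins. Of 16 other settings, 4 lost the Western against control call of Pdia3 and 3 that of P4hb. The other 4 of the list, Erp44, Ero1a, Gstk1 and Hspa5, did not pass. Pdia3 was the only gene of all the lists described here to be called between the quercetin and the Western diet, where it was lower on the quercetin diet, with 10.50 ± 0.20 against 10.98 ± 0.12 on the Western diet (log2 fold change -0.48, adjusted p = 0.046). This call was lost when any one of 17 of the 27 arrays was left out (adjusted p up to 0.12), and in 8 of 16 other settings, among them no scaling (-0.45, adjusted p = 0.31), the second probe set (-0.11, adjusted p = 0.89) and the fit without the arrays high in liver markers (-0.40, adjusted p = 0.24). These genes serve many secreted proteins besides adiponectin.

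Retn, the resistin gene, had a lowest, median and highest deposited signal of 7425, 8734 and 9813 on the quercetin diet, 6226, 7247 and 8788 on the Western diet and 6653, 8417 and 10115 on the control diet. The groups overlapped, and 5 of 9 Western diet mice lay below every quercetin diet mouse. The log2 fold change was -0.20 for Western against control (95% interval -0.36 to -0.04, adjusted p = 0.073, limma) and 0.18 for quercetin against Western (0.02 to 0.34, adjusted p = 0.29), neither of which passed. Control replicate 4, high in smooth muscle markers, was the lowest control mouse at 6653, and without it the first difference was -0.25 and passed (adjusted p = 0.018). It also passed without the arrays high in liver markers (-0.33, adjusted p = 0.019), without Western replicate 6 or 9 (-0.235 and -0.234, adjusted p = 0.038 and 0.041), and in the fits with array weights or over genes above the median mean, whereas with a median shift it was -0.10 (adjusted p = 0.69).

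Retn ran against the macrophage marker mean within both Western groups, though no such relation passed after adjustment. Over the 9 mice of the quercetin diet Pearson's r was -0.910 (exact permutation p = 0.0012) and Spearman's rho -0.900 (exact p = 0.00203), and with the 2 mice most distant from the median marker mean left out r was -0.982. On the Western diet r was -0.790 (exact p = 0.019), rho was -0.745 (exact p = 0.0267) and r without 2 mice was -0.754. On the control diet r was -0.146 (exact p = 0.71). With the mature adipocyte marker mean the r of Retn was 0.546 on the quercetin diet, 0.830 on the Western diet and 0.690 on the control diet (exact permutation p = 0.13, 0.0047 and 0.022, adjusted 0.40, 0.074 and 0.14). The rho were 0.567, 0.778 and 0.667 (exact p = 0.121, 0.018 and 0.0589), and r without 2 mice was 0.595, 0.769 and 0.653. After adjustment over the 63 relations computed, 7 genes with 3 marker means in 3 diets, the macrophage relations had p-values of 0.074, 0.14 and 0.88 for Pearson's r, and 0 of the 63 passed by either measure. At an unadjusted exact p under 0.05 there were 11 by Pearson's r.

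**Figure D4:**
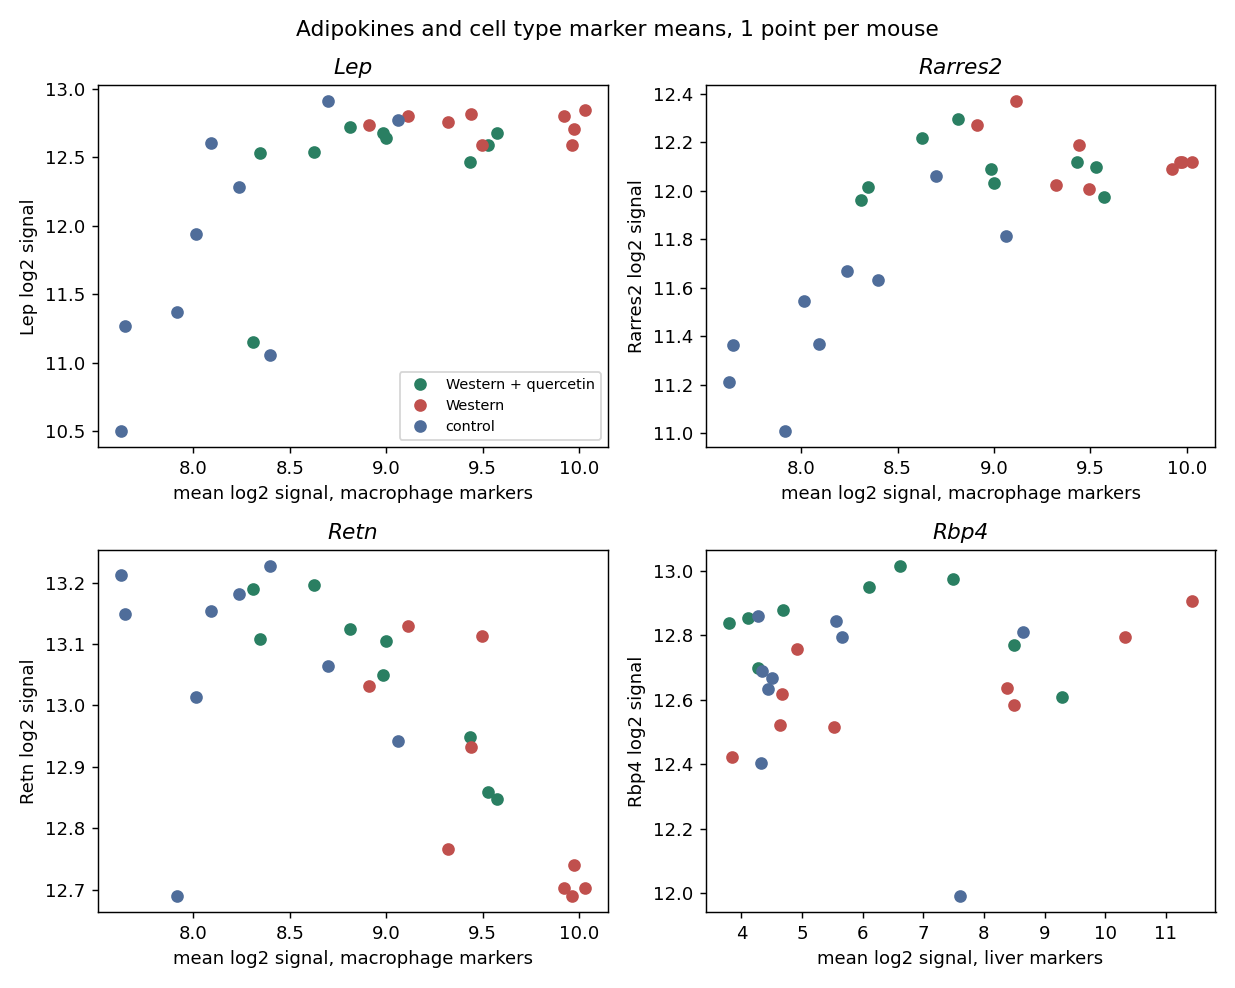
Log2 signal of Lep, Rarres2 and Retn against the macrophage marker mean, and of Rbp4 against the liver marker mean (both axes in log2 signal), 1 point per mouse, coloured by diet. The Retn points run downward in both Western groups (r = -0.910 on the quercetin and -0.790 on the Western diet, neither passing after adjustment), and the Western diet mouse with a liver mean of 11.44 has the highest Rbp4 of its diet.

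Rbp4, the retinol carrier, had a lowest, median and highest deposited signal of 6473, 7187 and 8984 on the quercetin diet, 5560, 6051 and 8220 on the Western diet and 3932, 6321 and 7610 on the control diet. On this deposited scale 9 quercetin diet mice were above the Western median and 6 Western diet mice below every quercetin diet mouse, and after normalization these counts were 8 and 4. The log2 fold change was 0.20 for quercetin against Western (95% interval 0.01 to 0.39, adjusted p = 0.32, limma), 0.21 for quercetin against control (0.02 to 0.40, adjusted p = 0.17) and 0.01 for Western against control (-0.18 to 0.20, adjusted p = 0.97). The first had an exact permutation p of 0.0103, not adjusted, and of 0.244 after a median shift, where it was 0.12.

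Liver makes RBP4 too, and the part of liver RNA in the Rbp4 signal was not tested beyond the following values. Western diet replicate 4, which had the highest liver marker mean, also had the highest Rbp4 signal of its diet, 8220, against 6963 or less on the other Western diet arrays. Over the 9 Western diet mice r of Rbp4 with the liver marker mean was 0.748 (exact permutation p = 0.022, adjusted 0.14; rho 0.733, exact p = 0.0311), and it was 0.293 once the 2 most distant mice by liver mean were left out. On the quercetin and the control diet r was -0.210 and -0.239 (exact p = 0.58 and 0.55). Without the 8 arrays high in liver markers, the quercetin diet exceeded the Western diet by 0.32 log2 units, which did not pass (adjusted p = 0.10). Rbp4 also ran against the macrophage mean, with r of -0.852 on the quercetin diet and -0.861 on the Western diet (exact p = 0.0039 and 0.0029, both 0.074 adjusted; rho -0.867 in each, exact p = 0.00451; r -0.824 and -0.718 without 2 mice), and with r of 0.150 on the control diet.

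Of 12 measured genes of retinoid transport and metabolism 3 were higher in Western than in control mice and 1 lower. In this comparison 11.3% of all genes were higher and 6.44% lower. Aldh1a2 (0.85, adjusted p = 0.0013) and Aldh1a3 (0.59, adjusted p = 0.046), which make retinoic acid, and Dhrs3 (0.46, adjusted p = 0.011), which turns retinal back to retinol, were the higher ones. Crabp1, a retinoic acid carrier of low signal, was lower (-2.37, adjusted p = 0.022), with mean log2 signals of 1.87 on the Western and 4.23 on the control diet. With signals floored at 32 its difference was -0.14 (adjusted p = 0.38). The call was also lost without the arrays high in other tissues, high in liver markers or with a high actin ratio. The call of Aldh1a3 was lost in 13 of the 27 fits that leave out 1 array, and that of Dhrs3 in 4 of 16 other settings.

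Nampt, the rate-limiting enzyme of NAD salvage that is also secreted, had deposited signals of 466 to 905 on the quercetin diet, 513 to 896 on the Western diet and 454 to 964 on the control diet, with medians of 648, 631 and 723. The ranges lay almost on top of each other. The log2 fold changes were -0.01 for quercetin against Western (95% interval -0.21 to 0.19), -0.09 for quercetin against control (-0.29 to 0.11) and -0.08 for Western against control (-0.28 to 0.12), with adjusted p-values of 0.98, 0.65 and 0.63 (limma). A second probe set with signals of 325 to 653 gave 0.04, -0.11 and -0.15, and a dim one (17.3 to 54.6) passed in no comparison. Of 12 other genes of NAD metabolism 1 was higher and 1 lower in Western than in control mice. These counts were not far from the shares of all genes, 11.3% and 6.44%. The higher was Bst1, an ectoenzyme of immune cells that consumes NAD (1.71, adjusted p = 0.0014). The lower was Sirt3, a mitochondrial deacetylase that uses NAD (-0.38, adjusted p = 0.032), a call lost in 7 of the 27 fits that leave out 1 array.

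Apln, which encodes the peptide apelin, had deposited signals of 106 to 254 on the quercetin diet, 96.0 to 182 on the Western diet and 73.9 to 231 on the control diet. The groups overlapped. Its intervals were the widest after those of Lep, -0.33 to 0.50 for quercetin against Western, -0.21 to 0.61 for quercetin against control and -0.30 to 0.53 for Western against control, around log2 fold changes of 0.09, 0.20 and 0.11 (adjusted p = 0.92, 0.62 and 0.75, limma). Of 3 measured genes of the apelin system 2 were higher in Western than in control mice and none lower (all genes 11.3% and 6.44%). Mme, neprilysin, which cleaves apelin, was higher on the quercetin (0.75, adjusted p = 0.00062) and on the Western diet (0.45, adjusted p = 0.012) than on the control diet, and Hif1a, the hypoxia factor that activates Apln, on the Western diet (0.43, adjusted p = 0.021). Of 16 other settings, 5 lost the Hif1a call, among them the methods' test (adjusted p = 0.14), and 4 lost the Western against control call of Mme.

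Further adipokines were read from a list of their own. Of 26 measured genes 12 were higher in Western than in control mice and 1 lower, beside 11.3% and 6.44% of all genes. The median log2 fold change of the 26 was 0.43. Saa3, an acute-phase protein, averaged a log2 signal of 10.48 ± 0.56 on the Western and 7.23 ± 1.44 on the control diet (log2 fold change 3.25, adjusted p = 6.4e-05). Ccn5, a matricellular protein (1.68, adjusted p = 0.00038), Metrnl, the hormone meteorin-like (1.64, adjusted p = 4e-05), and Ccl2, the macrophage chemokine (1.4, adjusted p = 0.0093, lost in 4 of 16 other settings), followed. In these 4 genes the quercetin against Western log2 fold changes were -1.39, -1.07, -0.82 and -0.65, none of which passed (adjusted p = 0.19, 0.11, 0.11 and 0.47). Over the list the median was -0.30 for this comparison, with 0 of 26 called by limma, 6 lower and none higher at an unadjusted p under 0.05 (6.41% and 7.31% of all genes), and a median of 0.019 over all genes.

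Adipsin opens the alternative complement pathway, and most measured genes of that pathway were higher on the Western diet. The median log2 fold change of its 8 measured genes was 1.17 for Western against control. Of these genes, 6 were higher than on the control diet and none lower (all genes 11.3% and 6.44%). C3ar1 (2.29, adjusted p = 5.5e-05) and C5ar1 (1.5, adjusted p = 0.00011), the receptors of complement fragments on myeloid cells, Cfb (1.04, adjusted p = 0.00011), the factor that adipsin cleaves, and Cfi, a complement inactivator (1.31, adjusted p = 0.0496, lost in 19 of the 27 fits that leave out 1 array), were among them. For quercetin against Western the median of the 8 was -0.61, with none called by limma and 5 lower at an unadjusted p under 0.05, beside 6.41% of all genes. The macrophage markers had medians of 1.36 and -0.70 in the same comparisons. Of 12 such markers 10 were called higher in the first, beside 11.3% of all genes, and 0 were called in the second. At an unadjusted p under 0.05, 10 of 12 were lower in quercetin than in Western mice, beside 6.41% of all genes. Whether the complement and other adipokine genes differed apart from these markers was not tested.

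Of 11 genes of leptin signalling 1 was lower in Western than in control mice, Irs1, the insulin receptor substrate (-0.73, adjusted p = 0.0026), and none was higher. Beside this count and those below, 6.44% of all genes were lower and 11.3% higher. Of 12 transcription factors known to act on adipokine genes Atf3, a stress-induced repressor (1.91, adjusted p = 0.00020), and Nr1h3, the liver X receptor alpha (0.29, adjusted p = 0.045, lost in 15 of the 27 fits that leave out 1 array), were higher on the Western diet, and Klf15, an adipogenic factor (-0.83, adjusted p = 0.0034), was lower. Pparg, the master regulator of adipocytes, was at 10.56 ± 0.16, 10.61 ± 0.17 and 10.64 ± 0.54 on the quercetin, Western and control diets, with an adjusted p of 0.94 for Western against control. Of 12 mature adipocyte markers none was higher and 1 lower in Western than in control mice.

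**Figure D5:**
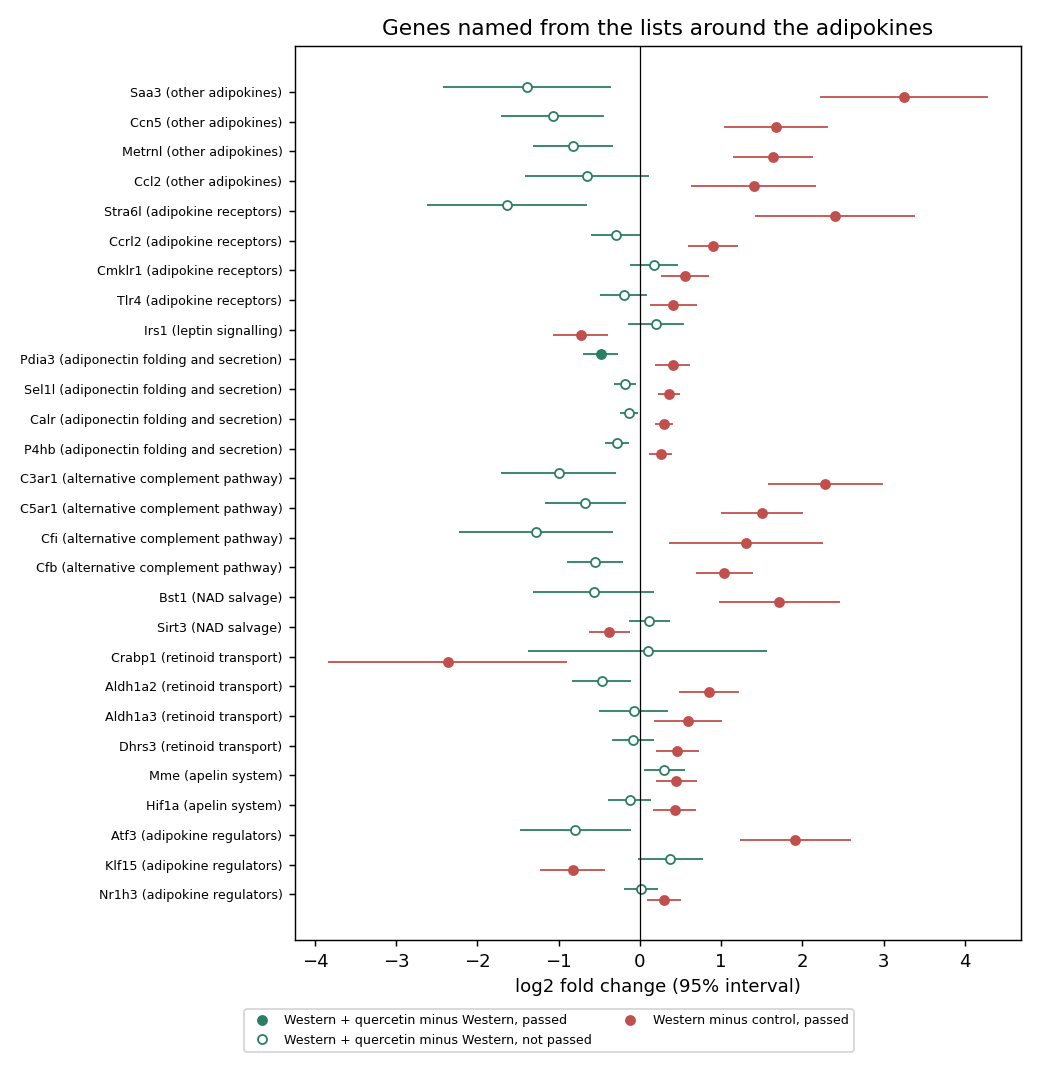
Log2 fold change (horizontal axis) with 95% interval of 28 genes named from the lists around the adipokines, for quercetin minus Western and Western minus control; filled points passed an adjusted p of 0.05 over all genes. The genes were chosen for passing in Western minus control, so all those points are filled, and for quercetin minus Western Pdia3 (-0.48) alone is filled, a call lost without any one of 17 of the 27 arrays.

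The genes most like each adipokine over the 27 arrays were sought by Pearson's r of log2 signal among the 9095 other genes with a mean above the median, as a description over arrays that share diets, tissue admixture and scaling. For Lep they were Paqr7 (r = 0.940), a membrane progesterone receptor, Diras2 (0.940), a small GTPase, Trp53inp2 (0.939), an autophagy protein, Lbp (0.938), the lipopolysaccharide-binding protein, and Duoxa1 (0.938), a maturation factor of dual oxidases. With the diet means taken out r was 0.910 to 0.912 for these 5. Each was higher in Western than in control mice (adjusted p = 0.0036 to 0.0071, limma). A choice by likeness to Lep over the 27 arrays favours both, so that neither is separate evidence. Rarres2 went most closely with Npc2 (0.936), a cholesterol carrier of lysosomes, Fkbp7 (0.917) and Fbln5 (0.903), an elastic fibre protein. With the diet means taken out r was 0.789, 0.833 and 0.72. Each of these genes was itself higher in Western than in control mice (adjusted p = 2.3e-05 to 0.00041, limma), so that part of the likeness is the shared diet difference.

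For Adipoq the closest genes reached only 0.752 (Kifbp), 0.738 (Akap8), 0.734 (Mapk8ip3), 0.725 (Zc3h7a) and 0.715 (Eid2). Retn was most like Bche (0.895), which encodes butyrylcholinesterase, Ptpn4 (0.892) and Ppp1r1a (0.867), and Rbp4 most like Gpt (0.902), alanine aminotransferase, Myl1 (0.892) and Sntb1 (0.875). Nampt went with Ids (0.824), AW549877 (0.786) and Pdcd2 (0.775), and Apln with Fscn1 (0.872), which bundles actin, Arhgap23 (0.821) and Meox2 (0.783), a homeobox factor.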

How the data were processed

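Signals came from Microarray Suite and GeneSpring by the authors' account. The deposited values are linear intensities per probe set, not scaled between arrays (array medians 25.2 to 54.4, maxima 12934 to 16382; r between 2 arrays of 1 diet 0.83 to 0.95). Arrays have no read depth, so their number sets the precision.

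Of 45101 probe sets, 64 controls were left out, the rest were quantile-normalized, floored at 1 and taken to log2. Probe sets annotated to several genes (932) or with no gene listed (9160) were not used as genes. Each of 18193 genes was read on the brightest of its probe sets, by the mean of 27 arrays. limma 3.58.1 in R 4.3.3 was fitted with 1 mean per diet, a variance trend, and p-values adjusted by Benjamini-Hochberg across the 18193 genes (threshold 0.05). Exact two-sided permutation tests used all 48620 splits of 9 against 9 mice. Marker means are means of log2 signal over a list. Correlations within diets used all orders of the 9 mice. The code was tested on simulated data. Python 3.11.15 and matplotlib 3.10.9 drew the figures.

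The members and lists were chosen with earlier results of these data known. Named genes are all members, up to 4 genes per list with the largest change past the threshold for Western against control and up to 2 for quercetin against Western, and the genes of highest r with each member (5 for Lep and Adipoq, 3 for the others). Cebpa, Cebpb, Cebpd and Pparg were named outside this rule, and the liver marker mean was added to the correlations after seeing the data. Alternatives were other scalings, floors, pseudocounts, filters, probe set choices, fits, the methods' test, a replicate block and left-out arrays. Mice are separate animals, but cages are not given, so p-values measure the spread between mice only. RT-PCR values were not used here.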

Additional observations from a re-analysis of the deposited data

Results flagged for a closer look

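Each member and the means of mature adipocyte, macrophage and liver markers were searched within each diet for a mouse apart from the other 8, in 30 groups of 9 mice, of which 2 held one (chance gives about 1 in 20). Lep on quercetin diet replicate 3 had a log2 signal of 11.15, with the next mouse at 12.46, a gap of 0.836 of the whole range. The mean of the mature adipocyte markers on quercetin diet replicate 1 was 12.34, with the next mouse at 12.20, a gap of 0.551 of the range.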

How the results depend on the processing

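Of the 1161 values recomputed for 27 results, 1104 kept their direction and side of the threshold, and the 37 that changed sign all belonged to differences that did not pass in either setting. The members higher on the Western than on the control diet were 1 in place of 2 (Lep lost) with the methods' test and without the arrays high in liver markers, and 1 member, Retn, was lower in place of 0 over genes above the median mean, with array weights, without control arrays 2, 4 and 6 and without the arrays high in liver markers. Leaving out each array in turn gave 0 to 1 lower in this comparison and 1 to 2 higher for quercetin against control. The arrays high in liver markers, in markers of other tissues, or with a high 3′ to 5′ actin ratio were left out after seeing the data. Signs turned as follows, as log2 fold changes. For Nampt, Western against control gave 0.039 with a median shift and 0.031 without the arrays with a high actin ratio, quercetin against Western gave 0.016 unscaled, 0.04 on the second probe set, 0.011, 0.0061 and 0.027 without the arrays high in other tissues, high in liver and with a high actin ratio, and quercetin against control gave 0.057 without the last. For Apln, Western against control gave -0.032 with array weights, -0.049 without the 3 control arrays and -0.12 without the arrays high in other tissues, which gave -0.0017 for quercetin against control. For Rbp4, Western against control gave -0.091, -0.11 and -0.14 in these 3 settings and -0.13 without arrays high in liver markers. For quercetin against Western, Adipoq gave -0.071 with a median shift, and Rarres2 0.0019 unscaled and 0.029 without arrays high in liver markers. For quercetin against control, Retn gave 0.014 unscaled and 0.073 without the arrays with a high actin ratio. Leaving out 1 array gave -0.0054 to 0.019 for Adipoq and -0.067 to 0.018 for Nampt between quercetin and Western, -0.073 to 0.036 for Rbp4 between Western and control, and -0.0701 to 0.0021 for Retn between quercetin and control. The causes were not tested. Over all genes, Western against control had 1108 to 2345 higher and 489 to 1943 lower in all these fits (2047 and 1172 as reported, 2326 and 578 with a median shift), quercetin against Western 0 to 766 and 0 to 615 (46 and 14 as reported, 0 and 3 with a median shift, 3 and 0 unscaled, 474 and 530 with the methods' test), and quercetin against control 168 to 1410 and 38 to 667 (910 and 301 as reported, 268 and 38 unscaled). Replicate numbers shared between diets did not pair the mice (correlation of deviations -0.511 to 0.372, median 0.0062), and with a replicate block Lep kept 0.88 (adjusted p = 0.025), no member's call changed, and quercetin against Western had 6 genes higher and 2 lower. Of 28 other named genes called for Western against control, 15 kept the call without the arrays high in liver markers, 20 without those high in other tissues, 20 without those with a high actin ratio, 20 with the methods' test and 19 unscaled. Signal over background was not assessed, since no detection call was used here.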
